A study of Mus musculus with 3 samples.

Results

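The 8 genes described here carry the machinery that generates the endocochlear potential or, in Esrrb, a regulator of the cells that hold it. They were Kcnq1, Kcne1, Kcnj10, Kcnj13, Kcnj16, Slc12a2, Bsnd and Esrrb, chosen by symbol from the 32285 genes of the count tables. Their unique molecular identifiers (UMIs, each standing for 1 captured mRNA molecule) were counted in every barcode with 200 to 6000 detected genes and no more than 30% mitochondrial UMIs. The series holds droplet single-cell RNA libraries of cochleae from C57/B6 mice (C57BL/6J in the study's methods; no treatment is given), with 1 library at postnatal day 14 (P14) and 2 libraries at postnatal day 28 (P28 replicate 1 and replicate 2). Each library pooled 14 ears of 7 mice, so the mice within a library cannot be separated. Per the study's methods the bony wall was removed and the tissue taken held the organ of Corti together with strial cells, Reissner's membrane, spiral ganglion neurons and other cells.

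The endocochlear potential is the positive voltage of the potassium-rich endolymph, and it drives current into hair cells through their transduction channels. It is made by the stria vascularis, an epithelium of marginal, intermediate and basal cells. Marginal cells take up potassium, sodium and chloride through the cotransporter NKCC1 (Slc12a2) and release potassium into endolymph through a channel of the pore KCNQ1 and its accessory subunit KCNE1. Barttin (Bsnd) is the accessory subunit of the chloride channels that return chloride across the marginal cell's basolateral membrane. Intermediate cells carry KIR4.1 (Kcnj10), the inward rectifier across which most of the voltage is built. KIR5.1 (Kcnj16) can assemble with KIR4.1, KIR7.1 (Kcnj13) is an inward rectifier of ion-transporting epithelia, and Esrrb encodes an orphan nuclear receptor of marginal cells.

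The limits kept 2005 of 2513 barcodes at P14, 9678 of 11948 in P28 replicate 1 and 14135 of 18196 in P28 replicate 2. The kept cells held 7903346, 31006388 and 33311342 UMIs, and median mitochondrial shares of 7.33%, 13.4% and 15.0%. Between 9 and 31 kept barcodes were shared by a pair of libraries. Levels below are UMIs per 1000000 UMIs of a cell class (CPM), given in the order P14, P28 replicate 1 and P28 replicate 2. Intervals are exact 95% Poisson intervals, which cover counting error only. Cell classes were rebuilt from clusters and are called "-like", since they rest on marker genes and not on a deposited annotation.

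The libraries differed in how much of the stria vascularis they held, and this decides where most of the 8 genes can be read. P28 replicate 2 held 38 marginal-like cells and 540 intermediate-like cells. P28 replicate 1 held 2 and 6, and no cluster of the P14 library was named for either type. In the marginal-like cells of P28 replicate 2 all 6 marginal markers were detected, led by Atp1b2 with 612 UMIs and Abcg1 with 50, and their sum was 5240 CPM against 126 in the intermediate-like cells. These cells also held 6 of 8 intermediate markers at 1779 CPM, mostly Dct with 218 UMIs, while Pmel and Tyrp1 stood at 0; the part of intermediate-cell RNA in the values below was not tested. The intermediate-like cells held 7 of 8 of their own markers at 16167 CPM, Tyrp1 being at 0. No comparison of the strial cells has a second library, so those below are described by counting intervals and carry no p-value.

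Droplets also pick up free RNA. The blood-derived classes (macrophage-like, B cell-like and red blood cell-like cells) served as a gauge of its level for each gene. That these classes do not express the genes themselves was assumed and not tested. They did not always share 1 level: at P14 Slc12a2 stood at 60.4 CPM (38.3 to 90.6) in macrophage-like and 0 (up to 12.5) in red blood cell-like cells. In P28 replicate 2 their 1065 cells held 13.3% of cells with a Slc12a2 UMI, 7.04% with Kcnj10, 7.04% with Kcnj16 and 1.41% with Kcne1. The share was below 1% for Kcnq1, Kcnj13, Esrrb and Bsnd. The 3 classes had a median of 1510 UMIs per cell as the middle of their class medians, against 3871.5 in the marginal-like cells and 1339.5 in the intermediate-like cells. Levels in other classes at or under the blood level are read below as background.

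In the mouse annotation (GENCODE M21, build GRCm38) Kcnq1 spans chr7:143106362-143427042 on the plus strand, and its exons overlap the antisense genes Kcnq1ot1 and 4933417O13Rik. Kcne1 lies at chr16:92345982-92359468 and Bsnd at chr4:106483456-106492283, both on the minus strand. Esrrb lies at chr12:86361117-86521628 on the plus strand. Kcnj13 lies at chr1:87386363-87394729 on the minus strand, and its exons overlap the span of Gigyf2 on the other strand. The setting by which the counting used strand is not given in the sources used here. Whether the Kcnq1 and Kcnj13 counts hold reads of the antisense partners was not tested. Kcnj10 and Kcnj16 lie at chr1:172341210-172374085 and chr11:110968033-111027968 on the plus strand, with no overlapping gene.

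RefSeq promoters (build GRCm38.p6, 250 bases before to 50 after the start site) were found for 4 of the 8 genes, namely Kcnj10, Kcnj13, Kcnj16 and Esrrb. The 3 rectifier promoters are shown because they can be set beside the class levels of the 3 genes, given below. For Kcnj16 only the first start site is shown. All run 5′ to 3′ on the gene's strand.
Kcnj13, chr1:87394680-87394979, minus strand: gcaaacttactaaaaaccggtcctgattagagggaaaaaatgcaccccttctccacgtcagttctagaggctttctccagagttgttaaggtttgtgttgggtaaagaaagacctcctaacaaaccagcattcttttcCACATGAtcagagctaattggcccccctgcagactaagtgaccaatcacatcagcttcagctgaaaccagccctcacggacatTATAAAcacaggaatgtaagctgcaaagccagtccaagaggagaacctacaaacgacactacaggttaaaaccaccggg
Kcnj10, chr1:172340960-172341259, plus strand: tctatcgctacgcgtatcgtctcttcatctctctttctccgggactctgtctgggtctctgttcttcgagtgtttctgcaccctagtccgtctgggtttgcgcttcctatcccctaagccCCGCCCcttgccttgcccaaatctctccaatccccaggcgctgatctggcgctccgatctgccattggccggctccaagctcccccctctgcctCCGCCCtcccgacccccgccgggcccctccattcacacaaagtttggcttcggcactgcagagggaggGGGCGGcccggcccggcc
Kcnj16, first of 4 start sites, chr11:110967783-110968082, plus strand: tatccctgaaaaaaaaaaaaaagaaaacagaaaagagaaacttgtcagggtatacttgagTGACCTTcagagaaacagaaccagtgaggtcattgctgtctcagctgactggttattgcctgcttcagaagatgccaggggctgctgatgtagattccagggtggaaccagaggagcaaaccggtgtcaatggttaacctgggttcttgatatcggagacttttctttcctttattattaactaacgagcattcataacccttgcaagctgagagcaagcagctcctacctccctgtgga
Capitals in the Kcnj13 promoter mark CACATGA, the reverse complement of the MITF E-box TCATGTG, and the TATA box TATAAA 29 bases before the start. On either strand TCATGTG was present in 3.77% of the 32851 promoters and TATAAA in 13.6%. Capitals in the Kcnj10 promoter mark 3 GC boxes (GGGCGG or CCGCCC), a motif of 35.7% of promoters. In the Kcnj16 promoter they mark TGACCTT, the reverse complement of AAGGTCA, which nuclear receptors of the estrogen-related family bind, present in 4.72% of promoters. GC content was 46%, 63.67% and 44.33%, against a median of 52.67% over all promoters. The full motifs TCAAGGTCA and GTCATGTG were in no promoter of the 4 genes. Among the later Kcnj16 start sites the third also held TATAAA and the fourth GGGCGG. These matches describe the letters of a window and say nothing of binding.

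**Figure D1:**
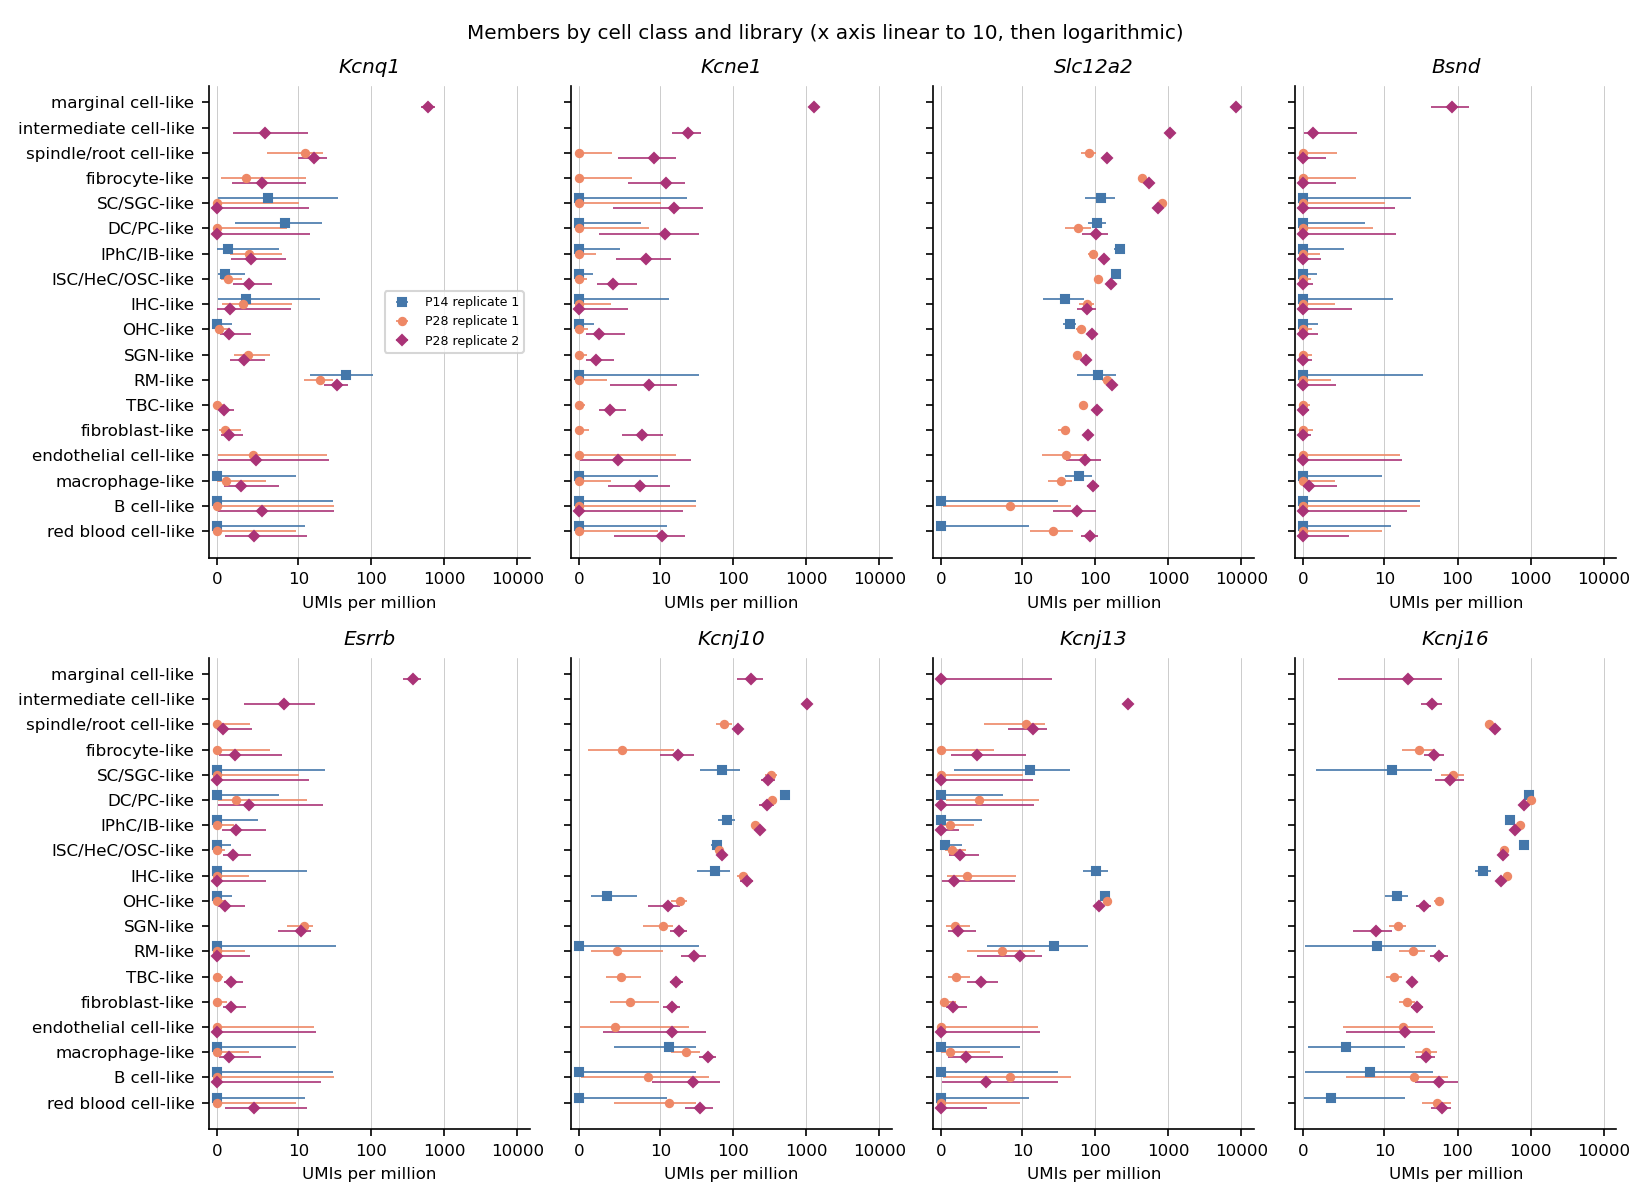
UMIs per 1000000 (CPM) of each of the 8 genes (horizontal axis, linear up to 10 CPM and logarithmic above) in each cell class (vertical axis), with points for the 3 libraries and bars for exact 95% Poisson intervals. Kcnq1, Kcne1, Slc12a2, Bsnd and Esrrb stand highest in the marginal-like cells of P28 replicate 2, Kcnj10 and Kcnj13 in its intermediate-like cells, and Kcnj16 in Deiters and pillar-like cells.

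In P28 replicate 2, 7 of the 8 genes had their highest level among the named classes in marginal-like or intermediate-like cells. The exception was Kcnj16. The share of all genes with their highest level in these 2 classes was not computed, so the count of 7 has no share to be set against. Slc12a2, the cotransporter, stood at 8292 CPM (7828 to 8776) in the marginal-like cells and was detected in all 38, with 6 to 81 UMIs per cell and a median of 33. The next named class, intermediate-like cells, held 1061 CPM, and an unnamed sub-cluster of 34 cells described below held 1552 CPM (1140 to 2063). Neither interval overlapped that of the marginal-like cells. The 2 marginal-like cells of P28 replicate 1 held 46 UMIs, or 7787 CPM. The 38 cells gave 18.4% of all its Slc12a2 UMIs.

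Both subunits of the apical potassium channel were concentrated in the same class. Kcnq1, the pore, gave 86 UMIs or 598 CPM (478 to 738) in 76.3% of the marginal-like cells, 17.8-fold over the next named class. Kcne1 gave 181 UMIs or 1258 CPM (1081 to 1455) in 86.8% of them, 53.4-fold over the next named class. The unnamed sub-cluster held Kcne1 at 693 CPM (429 to 1060), below the marginal-like interval, and 2 Kcnq1 UMIs. Kcnq1 and Kcne1 were detected together in 26 of the 38 marginal-like cells. Kcne1 was found in 89.7% of those with a Kcnq1 UMI and in 77.8% of those without, shares not matched for depth. Joint expression within the class was not tested. Outside the marginal-like cells Kcne1 ranged from 0 to 23.6 CPM among the named classes, against 7.80 CPM in the blood-derived classes. In P28 replicate 1 all 8 Kcne1 UMIs came from the 2 marginal-like cells, and the 2005 cells at P14 held none.

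Bsnd and Esrrb were sparse and had the same leading class. Bsnd was counted 14 times in P28 replicate 2 and 12 of those UMIs lay in 9 marginal-like cells, a level of 83.4 CPM (43.1 to 146). It was not detected in the other libraries, where a count of 0 allows up to 0.467 CPM at P14 and 0.119 CPM in P28 replicate 1 over all cells by the Poisson interval. Esrrb gave 53 UMIs or 368 CPM (276 to 482) in 60.5% of the marginal-like cells. Of Kcnq1, Kcne1, Slc12a2, Esrrb and Bsnd, 5 cells held all 5, 15 held 4, 12 held 3, 5 held 2 and 1 held 1.

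Set against all other cells of P28 replicate 2, the marginal-like cells had 6 of the 8 genes above and 1 below with intervals apart. Over all genes 5.27% were above and 5.84% below in that comparison. Kcne1 was 197-fold higher (161 to 241), Kcnq1 149-fold (112 to 197), Esrrb 127-fold (89.2 to 180) and Slc12a2 51.9-fold (48.7 to 55.3). The ratio of Bsnd, 1383-fold, has a counting interval from 308 to 12724 since 2 UMIs lay outside. Kcnj10 was 2.32-fold higher (1.5 to 3.43), with 25 UMIs, and Kcnj16 was 6.28-fold lower (2.15 to 30.5), with 3. Kcnj13 had no UMI in the 38 cells, which allows up to 25.6 CPM, and its intervals overlapped.

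Genes that work beside these 8 were read in the same cells from 37 listed partners and paralogs. In marginal-like cells 5 of the 37 were above all other cells, 7 below and 25 overlapped. Sgk1, a kinase that regulates ion channels, was 7.32-fold higher. Kcne2, Kcne3 and Kcne4, the other listed accessory subunits, stood at 0 there.

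Intermediate-like cells held the highest levels of the rectifiers Kcnj10 and Kcnj13. Kcnj10 gave 860 UMIs or 1013 CPM (947 to 1083) in 54.6% of the 540 cells, and these were 34.3% of its UMIs in the library. Kcnj13 gave 236 UMIs or 278 CPM (244 to 316) in 24.1%. The 6 cells of P28 replicate 1 held 5 Kcnj10 UMIs and 1 Kcnj13 UMI. Kcnj13 was found in 35.3% of the cells with a Kcnj10 UMI and in 10.6% of those without, shares that were not matched for depth.

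Against all other cells of that library, 4 of the 8 genes were above and 1 below in intermediate-like cells, beside 6.33% and 14.4% of all genes. Kcnj13 was 27.3-fold higher (23.0 to 32.3), Kcnj10 19.9-fold (18.3 to 21.7), Slc12a2 6.16-fold (5.74 to 6.61) and Kcne1 2.05-fold (1.24 to 3.21). Kcnj16 was 2.97-fold lower (2.16 to 4.20). Of the 37 listed genes 5 were above and 13 below. They included Kcnq5, a potassium channel pore, at 22.9-fold and Kcnj2, another inward rectifier, at 13.4-fold.

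The direct comparison split the 8 genes between the strial types. Marginal-like cells were above intermediate-like cells for 5 of them and below for 2, against 4.72% and 3.38% of all genes. Kcnq1 was 101-fold higher (41.8 to 320), Kcne1 53.4-fold (33.6 to 89.5), Bsnd 70.8-fold (10.5 to 3026), Esrrb 44.7-fold (20.2 to 116) and Slc12a2 7.81-fold (7.16 to 8.53). Kcnj10 was 5.83-fold lower (3.92 to 9.06). Kcnj13 was 13.3-fold lower with its 0 UMIs set to a floor of 3 counts in the marginal-like sum. That ratio is no lower bound, since the counting intervals were 0 to 25.6 CPM and 244 to 316 CPM. Kcnj16 was low in both, at 20.9 and 44.8 CPM, within the blood range or below it.

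**Figure D2:**
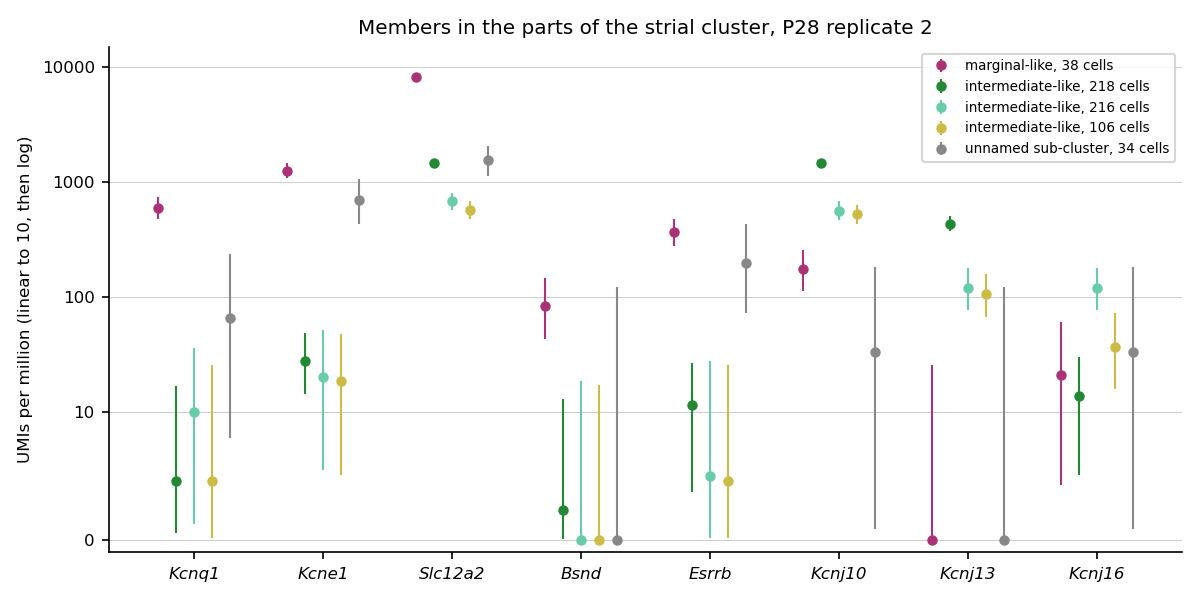
UMIs per 1000000 (CPM) of the 8 genes (vertical axis, linear up to 10 CPM and logarithmic above) in the marginal-like cells, the 3 intermediate-like sub-clusters and the unnamed sub-cluster of P28 replicate 2, with exact 95% Poisson intervals. Kcnj10 runs from 1460 CPM in the sub-cluster of 218 cells to 528 in that of 106, and the unnamed sub-cluster holds Kcne1 at 693 CPM with Slc12a2 at 1552.

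The strial cells were not uniform. The intermediate-like cells fell into 3 sub-clusters of 218, 216 and 106 cells in that library. Kcnj10 stood at 1460 CPM in the first and at 566 and 528 in the others, Kcnj13 at 436, 120.3 and 106 CPM, and Slc12a2 at 1481, 682 and 570. The last pair overlapped for each gene and the first lay apart from both. A further 34 cells stayed unnamed because too few markers were detected. They held 21 Kcne1 UMIs at 693 CPM, 6 Esrrb UMIs at 198 CPM, 2 Kcnq1 UMIs and Slc12a2 at 1552 CPM, in cells with a median of 786.5 UMIs and 21.7% mitochondrial UMIs. Within the marginal-like cells the members' levels overlapped between cells under and over 15% mitochondrial UMIs, for example 675 and 461 CPM for Kcnq1 and 1350 and 1095 for Kcne1.

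Other lateral wall cells were read in both P28 libraries. Spindle and root cells border the stria, and 537 and 898 spindle and root-like cells were found. Kcnj16 stood at 269 and 325 CPM and was higher than in all other cells, with a log2 fold change of 1.16 ± 0.17 (SE, 2 libraries, higher in both). The quasi-likelihood fit of edgeR gave an adjusted p of 0.00149, corrected after Benjamini and Hochberg over all genes tested. It was the only 1 of 7 tested genes called, where 13.8% of all genes were called higher and 19.5% lower. Kcnq1, with 11 and 21 UMIs (12.2 and 16.2 CPM), had a log2 fold change of 1.84 ± 0.61 and an adjusted p of 0.0517. Kcnj10, at 74.3 and 117 CPM, gave 0.78 ± 0.30 and 0.0821. All 4 Reissner's membrane markers were detected in the class and summed to 1692 and 659 CPM, against 523 and 359 over all cells, while its own 6 markers summed to 2886 and 3140 CPM against 1617 and 1304. In P28 replicate 1 the Reissner's membrane markers thus exceeded all cells by a larger factor than the class's own markers did, so the name is tentative. The part of Reissner's membrane RNA or cells in the values of this class, Kcnq1 included, was not tested.

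With the library as a block 4 of the 7 genes were called in spindle and root-like cells, where 2601 of 15590 genes were called higher and 3640 lower. Kcnq1 then had an adjusted p of 1.27e-05, Kcnj10 of 3.81e-07 and Esrrb, lower with 1 UMI in the class, of 0.0382 by the same edgeR test. That fit left 1 residual degree of freedom, the reason why the main fit had no block. With the strial-like cells taken out of the comparison 3 were called, where 2200 of 15601 genes were called higher and 3116 lower. They were Kcnq1 at 2.44 (adjusted p = 0.00188) and Kcnj10 at 1.15 (adjusted p = 0.00255, both by edgeR) beside Kcnj16. The class held clusters that differed. In P28 replicate 2 Kcnj16 was 463 CPM in the largest, cluster 9, and 78.0 in cluster 21, while Kcnq1 was 7.59 and 40.4 CPM. Set against the intermediate-like cells of that library, Kcnj16 was 7.26-fold higher (5.21 to 10.4), while Kcnj10 was 8.63-fold lower (7.25 to 10.3), Kcnj13 was 12.4-fold to 34.3-fold lower and Slc12a2 7.43-fold lower (6.33 to 8.75). In that pair 9.81% of all genes were above and 6.93% below.

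Among the 18 listed partners 17 were tested in spindle and root-like cells, with 4 called higher and 8 lower. Their median log2 fold change was -0.38, against -0.11 over all genes. Of 19 paralogs 16 were tested and 4 were called, all lower. The class was led by Wfdc18, Bpifb3 and Ecel1, at 6.48 to 7.48 on the same scale.

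Fibrocytes of the lateral wall recycle potassium through the cotransporter, and 513 and 885 fibrocyte-like cells were found. Slc12a2 stood at 440 and 545 CPM, a log2 fold change of 2.13 ± 0.32 (adjusted p = 0.00109, edgeR quasi-likelihood test, higher in both libraries). Kcnj10, Kcnj13 and Kcnj16 were lower, by log2 fold changes of -2.02 ± 0.46, -2.44 ± 0.56 and -1.60 ± 0.22, each in both libraries. With that 4 of 7 tested members were called, where 22.0% of all genes were called, 9.17% higher and 12.8% lower. The call of Kcnj13, which rests on 4 UMIs, was lost when strial-like cells were taken out of the comparison (adjusted p = 0.0815, edgeR). Slc12a2 was still 15.2-fold higher (13.7 to 16.9) in the marginal-like than in the fibrocyte-like cells of P28 replicate 2, a pair with 6.60% of all genes above and 4.06% below. Of the listed partners 3 were called higher and 6 lower, and Slc12a4, a potassium-chloride cotransporter, rose by 1.90 ± 0.22.

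**Figure D3:**
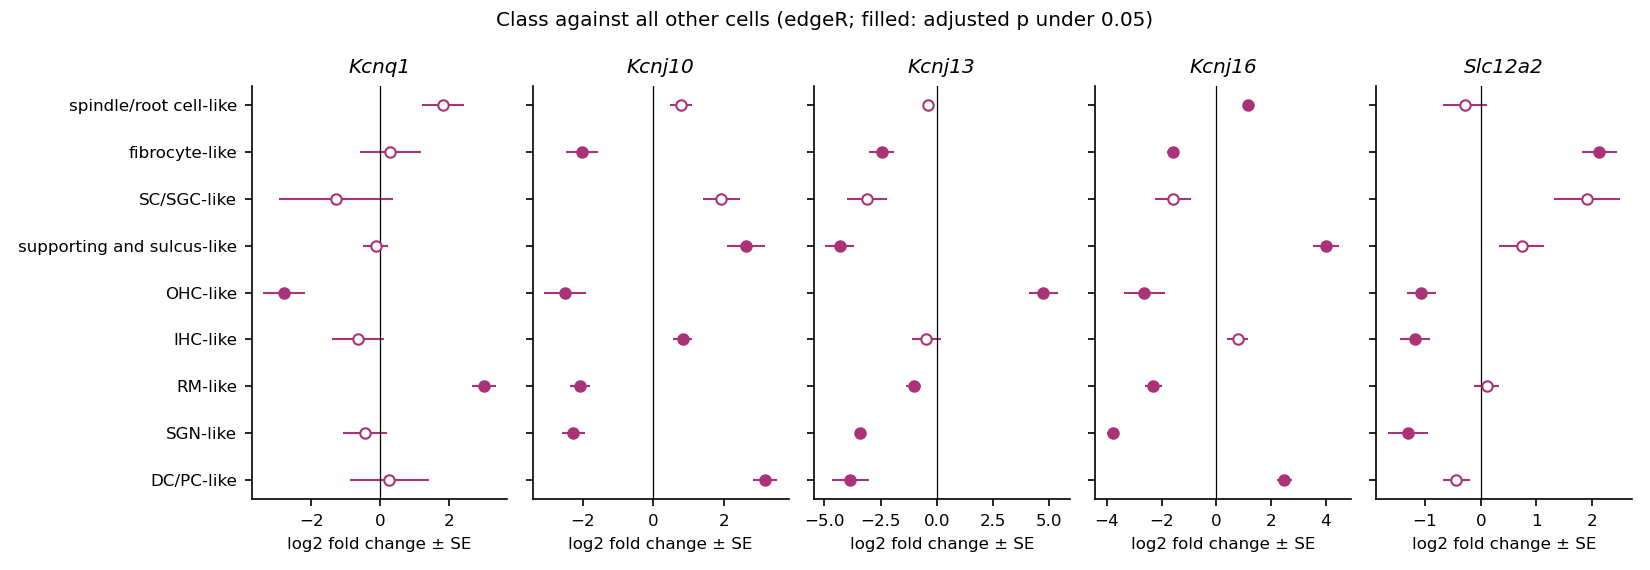
Log2 fold change of 5 members in each of 9 cell classes against all other cells, from the edgeR quasi-likelihood fit on sums per library, with bars for the standard error and filled points for an adjusted p below 0.05. Kcnj10 and Kcnj16 are higher in the supporting classes, Kcnj13 in outer hair cell-like cells, Slc12a2 in fibrocyte-like cells and Kcnq1 in Reissner's membrane-like cells.

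Kcnj10 and Kcnj16 had their other high levels in the supporting cells of the organ of Corti, which clear potassium from around hair cells. Deiters and pillar-like (DC/PC-like) cells held Kcnj16 at 961, 1004 and 803 CPM, the highest class in each library. Kcnj10 stood there at 513, 340 and 285 CPM. The log2 fold changes were 2.49 ± 0.27 for Kcnj16 (adjusted p = 6.34e-05) and 3.15 ± 0.35 for Kcnj10 (adjusted p = 6.84e-05), both higher in 3 of 3 libraries by edgeR. Kcnj13, with 2 UMIs in the class, was lower at -3.85 ± 0.82. Here 7.96% of all genes were called higher and 12.9% lower. Without P28 replicate 1 none of the 13130 genes tested was called, these 3 included, Kcnj10 giving 2.99 and Kcnj16 2.10. That fit, like all others with a library left out, had no library term, so the lost library and the lost term cannot be told apart. Of the 3 calls 1 was kept without P28 replicate 2, where 154 of 12935 genes were called higher and 193 lower.

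Inner phalangeal and border-like (IPhC/IB-like) cells held Kcnj16 at 519, 709 and 619 CPM and Kcnj10 at 82.0, 198 and 232. Sulcus and Hensen-like (ISC/HeC/OSC-like) cells held Kcnj16 at 819, 439 and 422 CPM and Kcnj10 at 59.4, 64.3 and 69.9. Over the 3 supporting classes together Kcnj16 was higher by 4.02 ± 0.48 (adjusted p = 0.00558) and Kcnj10 by 2.62 ± 0.54 (adjusted p = 0.0203), while Kcnj13 was lower at -4.31 ± 0.63 (adjusted p = 0.00870, all by edgeR). In that comparison 17.9% of all genes were called higher and 19.4% lower. Without P28 replicate 1, and so without a library term, none of the 13498 genes tested was called, these 3 included, at log2 fold changes of 4.20, 2.15 and -5.28. Of the partners 5 were higher and 4 lower, Gjb6, a gap junction connexin of these cells, by 2.75 ± 0.44. The paralog Kcnj15 rose by 4.42 ± 0.43.

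Kcnj16 was detected more often in supporting cells that held a Kcnj10 UMI than in those without. These shares were not matched for depth, and deeper cells are more likely to hold a UMI of any gene. Joint expression beyond depth was not tested. In DC/PC-like cells Kcnj16 was found in 87.3%, 88.2% and 85.7% of the cells with a Kcnj10 UMI, and in 57.5%, 53.8% and 27.4% of those without. In ISC/HeC/OSC-like cells the shares were 91.6%, 74.7% and 58.0% with Kcnj10, against 65.4%, 40.9% and 37.1% without. The share of Kcnj16 cells in the blood-derived classes was 1.96%, 6.25% and 7.04%. Thinning to 1000 UMIs per cell left out the cells with fewer. Kcnj16 was present in 63.6%, 61.8% and 51.3% of the DC/PC-like cells left, against 75.7%, 69.9% and 48.9% of the whole class before thinning.

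Inner hair cell-like (IHC-like) cells of the P28 libraries also held both rectifiers. Kcnj16 stood at 225, 470 and 395 CPM and Kcnj10 at 56.2, 135 and 153 CPM. The P14 class was shallower, with a median of 1161.5 UMIs per cell against 10644 and 8297.5 at P28. Kcnj10 was higher by 0.83 ± 0.28 (adjusted p = 0.0370, higher in 2 of 3 libraries) and Slc12a2 was lower at -1.18 ± 0.26 (adjusted p = 0.00554) by edgeR, while Kcnj16 gave 0.78 ± 0.38 (adjusted p = 0.135). Over all genes 13.9% were called higher and 23.6% lower. These calls changed when a library was left out, which also took away the library term. Without P14 the calls numbered 4, Kcnj16 being higher by 1.51, where 2833 of 15427 genes were called higher and 4220 lower. No member was called without P28 replicate 1 or without replicate 2, Kcnj10 giving 0.45 and 0.75. Of all genes 84 of 13197 were called higher and 117 lower in the former, and 213 of 13234 and 402 in the latter. Without the library block 1 member was called, where 1126 of 13090 genes were called higher and 2051 lower. Under the study's own cell limits, which left 2 libraries and so no library term, Kcnj10 turned to -0.51 (adjusted p = 0.729). In P28 cells the pair was found together in 50 of 87 and 41 of 72. IPhC/IB-like cells of the same 2 libraries held more of both, Kcnj16 at 709 and 619 CPM and Kcnj10 at 198 and 232. The part of such RNA in the IHC-like values was not tested.

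Glia of the nerve, the Schwann and satellite glial-like (SC/SGC-like) cells, held Kcnj10 at 69.0, 329 and 300.2 CPM and Slc12a2 at 119, 808 and 718 CPM. No member was called among 5 tested, where 2.04% of all genes were called higher and 1.78% lower. The log2 fold changes were 1.92 ± 0.53 for Kcnj10 (adjusted p = 0.104) and 1.91 ± 0.60 for Slc12a2 (adjusted p = 0.150) by edgeR. At P14 the class and the other cells were nearly level, at 69.0 and 60.2 CPM for Kcnj10 and 119 and 115 for Slc12a2, log2 ratios of CPM + 1 of 0.19 and 0.05, against 1.91 to 3.26 in the P28 libraries. At an unadjusted p under 0.05 there were 4, and DESeq2 called 1, where it called 473 of 13354 genes higher and 328 lower. Without the P14 library, and so without a library term, 4 were called, where 1181 of 15363 genes were called higher and 1399 lower. Kcnj10 then gave 2.52 and Slc12a2 2.56, with Kcnj16 lower at -0.73 and Kcnj13 at 0 in the class.

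Outer hair cell-like (OHC-like) cells held Kcnj13 in all 3 libraries, and at P14 their level overlapped that of IHC-like cells (102 CPM, 68.3 to 146). It stood at 136 (121 to 153), 143 (131 to 156) and 113 (99.5 to 129) CPM, with 275, 497 and 237 UMIs. It was found in 30.3%, 43.8% and 31.4% of these cells, and in 0%, 0.321% and 0.469% of blood-derived cells. OHC-like cells gave 88.1%, 90.9% and 41.8% of the gene's UMIs, the last in the library that held intermediate-like cells. The log2 fold change was 4.73 ± 0.65 (adjusted p = 0.00510, edgeR, higher in 3 of 3 libraries), and it was called under each of the 16 alternatives run, from 3.82 to 5.41. Over all genes 58.8% were called in this class, 26.0% higher and 32.8% lower.

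The other 4 tested members were lower in OHC-like cells. They were Kcnq1 at -2.80 ± 0.61, Kcnj16 at -2.63 ± 0.76, Kcnj10 at -2.49 ± 0.59 and Slc12a2 at -1.07 ± 0.26, with adjusted p from 0.0159 to 0.0364 by edgeR. The Kcnq1 call rests on 4 UMIs in the class. Its levels of 0, 0.29 and 1.44 CPM are read as background, the blood-derived classes holding 0, 0.70 and 3.67. The other cells held 2.55, 2.80 and 6.92 CPM of Kcnq1. Only 2 of these 4 members were called without P28 replicate 1, where 882 of 13119 genes were called higher and 1531 lower. Without P28 replicate 2 it was also 2, where 1077 of 13431 genes were called higher and 2435 lower. Among their paralogs Kcnj15 was lower at -5.04 ± 0.78. Kcnn2, a calcium-activated potassium channel of these cells, rose by 3.34 ± 0.22.

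Reissner's membrane-like (RM-like) cells face endolymph and held the highest Kcnq1 level outside the stria in each library. It stood at 45.2 (14.7 to 105), 19.6 (12.1 to 29.9) and 33.6 (22.8 to 47.6) CPM, from 5, 21 and 31 UMIs, intervals that overlapped those of the next class. Kcne1 gave no more than 8.66 CPM, near the blood level. Kcnq1 was higher than in other cells by 3.02 ± 0.35 (adjusted p = 2.39e-09, edgeR, higher in 3 of 3 libraries), where 14.6% of all genes were called higher and 21.8% lower. Kcnj16, Kcnj10 and Kcnj13 were lower at -2.30 ± 0.31, -2.07 ± 0.29 and -1.02 ± 0.34. Kcnj13 still stood at 27.1, 7.46 and 9.74 CPM in RM-like cells, from 3, 8 and 9 UMIs. The blood-derived classes held 0, 1.40 and 2.29 CPM of it. Its fold change is therefore relative to other cells that include the OHC-like cells, and is not a sign of a background level. The call of Kcnj13 was lost in 8 of the 16 alternatives run. Without P28 replicate 1 no member was called, Kcnq1 giving 3.27 (adjusted p = 0.0640, edgeR), where 220 of 13162 genes were called higher and 151 lower. Without the library block 2 were called, Kcnj10 and Kcnj13 being lost, where 992 of 13132 genes were called higher and 1363 lower.

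**Figure D4:**
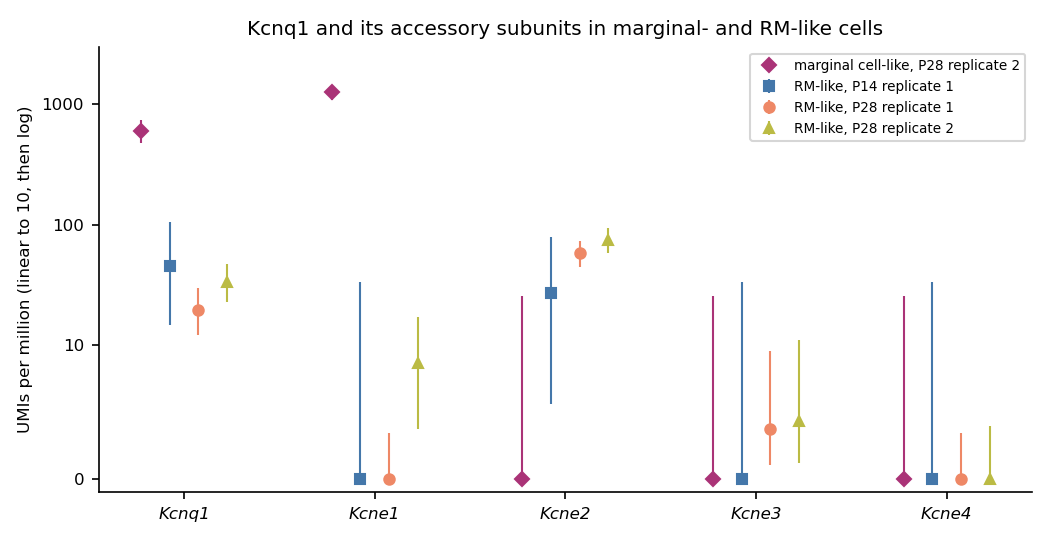
UMIs per 1000000 (CPM) of Kcnq1 and the accessory subunits Kcne1, Kcne2, Kcne3 and Kcne4 (vertical axis) in marginal-like cells of P28 replicate 2 and in Reissner's membrane-like cells of the 3 libraries, with exact 95% Poisson intervals. Kcne1 stands at 1258 CPM and Kcne2 at 0 in the former, while Kcne2 reaches 74.7 CPM in the latter.

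The accessory subunits found beside Kcnq1 differed between the classes. Kcne2 was at 27.1, 57.8 and 74.7 CPM in RM-like cells, which gave 3 of 4, 62 of 70 and 69 of 79 of its UMIs in the libraries. Its log2 fold change of 7.78 ± 0.33 was the largest among the paralogs tested there. It had no UMI in the marginal-like cells, which allows up to 25.6 CPM. Kcnq1 and Kcne2 were detected in the same RM-like cell in 1 of 47, 6 of 532 and 5 of 604 cells.

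Spiral ganglion neuron-like (SGN-like) cells held the highest Esrrb level among the named classes outside the stria. It stood at 11.8 (8.56 to 15.9) and 10.8 (7.56 to 14.9) CPM in the P28 libraries, from 43 and 36 UMIs, which overlapped the intermediate-like level of 8.25 CPM in replicate 2. Cells with a UMI made up 8.67% and 9.78% of the class, against 0% and 0.469% of blood-derived cells. SGN-like cells gave 79.6% of the gene's UMIs in P28 replicate 1 and 24.2% in replicate 2. Its log2 fold change was 2.34 ± 0.82 (adjusted p = 0.0342, edgeR, higher in both), where 75.5% of all genes were called, 34.3% higher and 41.2% lower. The call was lost with DESeq2 (adjusted p = 0.108), under the study's cell limits (0.636) and after thinning (0.322). Kcnj16, Kcnj13, Kcnj10 and Slc12a2 were lower at -3.79 ± 0.23, -3.42 ± 0.23, -2.27 ± 0.32 and -1.31 ± 0.36. With the library block, a fit with few residual degrees of freedom, Kcne1 was also called lower, at -2.74 (adjusted p = 0.000528, edgeR), from 7 UMIs.

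The related receptor Esrrg was found in the same neurons. It rose by 7.04 ± 0.22 in SGN-like cells. Of the cells with an Esrrb UMI, 39 of 41 and 34 of 36 also held Esrrg, or 95.1% and 94.4%. Among cells without Esrrb the shares were 45.6% and 61.4%. They were not matched for depth. The potassium channel genes Kcnj14 and Kcnj3, paralogs of the members, rose by 6.62 ± 0.47 and 6.00 ± 0.17.

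**Figure D5:**
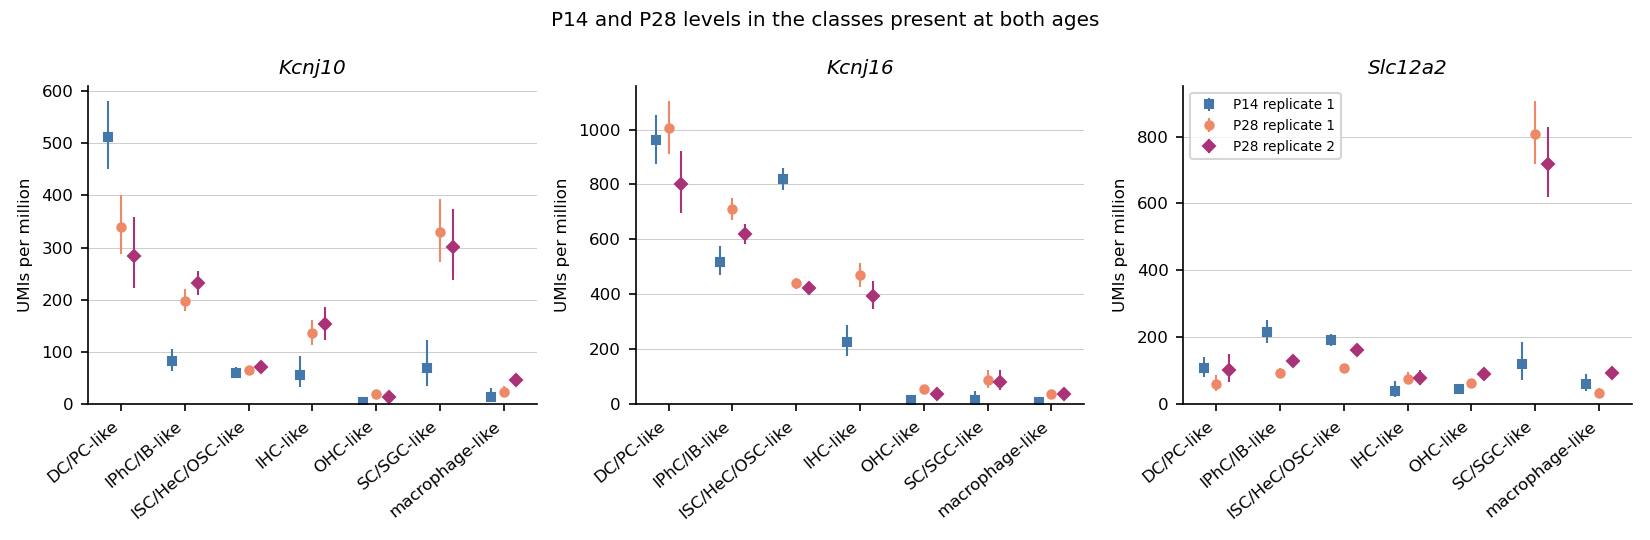
UMIs per 1000000 (CPM) of Kcnj10, Kcnj16 and Slc12a2 (vertical axis) in 7 cell classes in the P14 library and the 2 P28 libraries, with exact 95% Poisson intervals. Kcnj10 and Slc12a2 in SC/SGC-like cells lie lower at P14 than in both P28 libraries, and Kcnj16 in ISC/HeC/OSC-like cells lies higher.

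With 1 library at P14 the ages carry no test, and age cannot be told apart from that library. A P14 level is called apart here where its Poisson interval overlapped neither P28 interval. In SC/SGC-like cells Kcnj10 was 4.56-fold, Kcnj16 6.63-fold and Slc12a2 6.41-fold higher in the mean of the P28 libraries, where 3.54% of all genes were below and 3.77% above at P14. The blood-derived classes held Kcnj16 at 5.01 CPM at P14 and at 40.6 and 45.4 at P28, a gap in the same direction, beside SC/SGC-like P28 levels of 86.4 and 79.8 CPM. Summed Schwann and satellite glial markers stood at 60259 CPM at P14 and at 28896 and 24815 at P28, and the P14 class had a median of 931.5 UMIs per cell. Thinning to 1000 UMIs left out the cells with fewer, and the P14 median of 931.5 lies under that limit. Of the cells left Kcnj10 was found in 2.6%, 26.0% and 23.5% and Slc12a2 in 5.1%, 53.7% and 42.2%.

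In the supporting classes the age gaps ran in different directions. Kcnj10 was 1.64-fold higher at P14 than the P28 mean in DC/PC-like cells, where 3.59% of all genes were above, and the P28 mean was 2.62-fold higher in IPhC/IB-like cells, where 8.07% were below. Kcnj16 was 1.90-fold higher at P14 in ISC/HeC/OSC-like cells, with 8.97% of all genes above and 7.19% below. Slc12a2 was 1.94-fold higher at P14 in IPhC/IB-like cells, with 7.37% above, and Kcnj16 1.28-fold higher at P28. For both genes the intervals of the P28 libraries were also apart from each other. Slc12a2 stood at 214 CPM at P14 and 91.8 and 129 at P28, and Kcnj16 at 519 and at 709 and 619. In OHC-like cells Kcnj10 and Kcnj16 were 4.52-fold and 3.04-fold higher at P28, where 9.86% of genes were below and 7.05% above at P14. The P28 levels of OHC-like cells were 18.4 and 12.9 CPM for Kcnj10, no higher than the blood-derived classes at 18.9 and 40.4 (6.26 at P14), and are read as background. For Kcnj16 they were 55.5 and 34.9 CPM, with intervals apart from each other, near the blood-derived 40.6 and 45.4.

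Hair cell-like cells held the largest age gap of Kcnj13. In IHC-like cells it stood at 102 CPM at P14 and at 3.15 and 1.62 at P28, with 3.68% of all genes above at P14. The 29 UMIs came from 6 of 86 cells, the highest holding 11. Those 6 cells had a median of 16709 UMIs, a median of 34.5 UMIs of the inner hair cell marker Slc17a8 and a median of 0 of the outer hair cell marker Slc26a5. The other 80 had medians of 1105.5 UMIs and 1 Slc17a8 UMI. Kcnj10 and Kcnj16 were 2.56-fold and 1.92-fold higher in the P28 mean of this class, where 4.25% of genes were below at P14. Kcnq1, Kcne1, Bsnd and Esrrb lay apart at P14 in none of the 10 classes held by all libraries, Kcnq1 in RM-like cells included. In RM-like cells 2.06% of all genes were above and 1.11% below. With 0 to 5 UMIs per class at P14, the counts of these genes could show only large gaps, so a difference between the ages is not excluded.

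Across 47 sums of a class in a library, the members grouped by the same strial cells. The correlation of log2(CPM + 10) is a description, since sums of a library share its free RNA and depth. Kcne1 and Bsnd had r = 0.92, Bsnd and Esrrb 0.95, and Kcnq1 and Kcne1 0.78. Without the single marginal-like sum the values were 0.49, 0.36 and 0.15, so that sum carried them. Kcnj10 and Kcnj16 had r = 0.73 with it and 0.76 without. Over all genes those most like Kcnj16 were Tmprss6 (0.96), Bmp6 (0.93) and Gal3st4 (0.92). Those most like Kcnj10 were Gpr37 (0.85), Lurap1 (0.79) and Nrcam (0.78). Those most like Kcnj13 were Myo1h (0.77), Gm9195 (0.75) and Necab2 (0.74).

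The neighbours of Kcnq1, Kcne1, Bsnd and Esrrb also had their own highest level in that single sum of 38 cells. Without it the r of Kcne1 and Esrrb was 0.42, and the others were not recomputed. Kcnq1 was nearest to Tacr3 (r = 0.93), Krt7 (0.91) and Pax2 (0.89). Kcne1 was nearest to Rufy4 (0.94), Ptger3 (0.92) and Esrrb (0.91), Bsnd to Ptger3 and Ybx2 (both 0.97) and Tmem45b (0.95), and Esrrb to Ybx2, Ptger3 and Kcne1. Slc12a2, which was also present in fibrocyte-like and glia-like cells, was nearest to Mitf (0.75), Plin4 (0.74) and Ss18l2 (0.74). Plin4 and Ss18l2 also had their highest level in the marginal-like sum. Mitf, 1 of the markers used to name the intermediate-like class, had its highest level in the intermediate-like sum of P28 replicate 2.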

How the data were processed

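Droplet 3′ libraries were sequenced and the authors deposited UMI counts per gene and barcode, made with Cell Ranger (5.0.1 in the matrix headers, 6.0.1 in the submitters' processing notes) against mm10. The 8 genes and the lists of 18 partners and 19 paralogs were chosen with earlier results of these data known. Barcodes with 200 to 6000 genes and at most 30% mitochondrial UMIs were kept, a median of 1447 to 2003 UMIs per cell. The study's stricter limits, an alternative, left 1400, 4829 and 6391 barcodes. The ages were clustered apart in Seurat 5.3.0 (R 4.3.3; 2000 variable genes without 45 member and list genes, 30 components, resolution 1, P28 libraries integrated). P28 cluster 14 was clustered again after the data were seen (resolution 0.5). A class needed 3 markers at a log2 ratio of 1 over the median cluster and in 5% of cells, and 10 cells in a library, a rule adjusted after clusters, not member levels, were seen. Doublet scores (Scrublet) called 4, 0 and 0 cells and were not used, except to leave out the highest 5% as an alternative.

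Counts were summed per class and library and each class was tested against all other cells with edgeR 4.0.16 (quasi-likelihood test, TMM, Benjamini-Hochberg adjustment over all genes tested, threshold 0.05). DESeq2 1.42.0 was an alternative. Libraries were the replicates, the P28 pair being separate pools of 7 mice per the study's methods. A class and the other cells of a library come from the same mice and so are paired; deviations of the pair correlated at 0.13 to 0.36, except fibrocyte-like (0.077) and SC/SGC-like (0.042 to 0.069) cells. Fits with 3 libraries had a library term. Those with 2, also after a library was left out, did not, since too few residual degrees of freedom would remain. The pairing is ignored in those fits. Comparisons of OHC-, IHC-, RM-, SGN- and DC/PC-like cells were added after levels were seen. Named list genes were the 5 partners and 5 paralogs of largest change among those called, and the 3 leading genes were those of largest increase with 30 UMIs or more; other genes named were chosen after their values were seen. Some listed genes are counted but not reported by name here. Simulated tests with 200 genes changed by a factor of 4 recovered 97.5% to 100% of them, and 1.96% to 5.74% of the calls were on unchanged genes. The simulated libraries differed only in depth, with a dispersion of 0.05 for every gene. The changed genes had at least 5 expected UMIs in each sum. The recovered share therefore does not hold for sparse members or for libraries that differ. Python 3.11.15, NumPy 2.4.6, pandas 2.3.3, SciPy 1.17.1 and matplotlib 3.10.9 were used.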

Additional observations from a re-analysis of the deposited data

Results flagged for a closer look

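Barcodes left out for more than 30% mitochondrial UMIs held several of the genes at levels above those of the kept cells, with Poisson intervals apart. In P28 replicate 2 they held Kcnq1 at 11.1 CPM against 6.57 in kept cells, Kcne1 at 38.8 against 11.8, Kcnj10 at 147 against 75.3, Kcnj16 at 190.3 against 131, Slc12a2 at 346 against 195 and Esrrb at 10.2 against 4.47. These barcodes gave 24.6% of the Kcne1 UMIs and 8.85% of all UMIs of that library. In P28 replicate 1 they held Kcne1 at 3.00 CPM against 0.258, from 5 UMIs, Kcnj10 at 68.9 against 45.8, Kcnj16 at 237 against 162 and Slc12a2 at 142 against 92.0. Which cells they came from was not tested.

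Several genes stood on opposite sides of all other cells at the 2 ages, and these differences were not tested. The values are log2 ratios of CPM + 1 in the order P14, P28 replicate 1 and P28 replicate 2. In IHC-like cells Kcnj10 gave -0.10, 1.63 and 1.04, Kcnj16 gave -0.62, 1.62 and 1.64, and Kcnj13 gave 1.43, -2.20 and -2.80. Kcnq1 gave 1.37, -1.83 and -2.93 in SC/SGC-like cells, 1.91, -1.83 and -2.93 in DC/PC-like cells, and 0.16, -0.29 and -0.76 in all supporting classes. The P14 values of Kcnq1 rest on 1 UMI in SC/SGC-like and 4 UMIs in DC/PC-like cells, and both classes held 0 Kcnq1 UMIs in each P28 library, so that those P28 ratios reflect only the level in the other cells and are no measured size.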

How the results depend on the processing

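Of the called fold changes recomputed under an alternative, 357 stayed called in the same direction, 42 were no longer called and 1 reversed, Kcnj10 in IHC-like cells at -0.51 under the study's cell limits. The counts of members with Poisson intervals apart stayed within 1.5 times in all 43 recomputations, and so did the count of members highest in a strial class in all 8. With so few members that band is wide. The former count adds members above and below, and neither count shows whether the same members made it up. They are therefore a weak check. Class levels in CPM moved by more than their counting interval in 13 of these recomputations and stayed within it in 51. Members called in spindle and root-like cells numbered 1, and 2 with DESeq2, a 15% mitochondrial limit, resolution 2, no integration or without the 5% highest Scrublet scores, 3 without strial-like cells and 4 with the replicate block. The settings with 2 called 1648 to 2238 of all genes higher and 2266 to 3243 lower, of 15141 to 15590 tested. The 4 in fibrocyte-like cells became 2 with no filter on low counts, where 850 of 21707 genes were called higher and 1119 lower. The 0 in SC/SGC-like cells became 1 with DESeq2 and 3 under the study's limits or after thinning. Of all genes 349 of 11706 were called higher and 415 lower under those limits, and 382 of 9097 and 405 after thinning. The 2 in IHC-like cells became 1 with DESeq2, without the replicate block or under the study's limits. Of all genes 1431 of 13090 were called higher and 2244 lower with DESeq2, and 311 of 11476 and 649 under the limits. The 4 in RM-like cells became 2 without the replicate block, and the 5 in SGN-like cells 2 under the study's limits. In the latter 2270 of 14142 genes were called higher and 2486 lower. The replicate block changed no other count by over 1.5 times.

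Leaving out each library in turn gave 0 to 4 members called in SC/SGC-like cells, 0 to 3 in all supporting classes, 3 to 6 in OHC-like, 0 to 4 in IHC-like, 0 to 4 in RM-like and 0 to 3 in DC/PC-like cells. Without P14, 4766 of 15535 genes were called higher and 6030 lower in OHC-like cells. In all supporting classes it was 3925 and 4757 of 15531. In RM-like cells it was 2316 and 3177 of 15603, and in DC/PC-like cells 1386 and 2153 of 15327. Without P28 replicate 1 no gene at all was called in all supporting classes or in DC/PC-like cells. The same held for SC/SGC-like cells when either P28 library was left out. These fits also had no library term, so the library left out and the missing term cannot be told apart. The cause was not tested. Spindle and root-like, fibrocyte-like and SGN-like cells had 2 libraries, so that leaving out 1 gives no test, and the strial classes had 1. Low counts limit the precision of Bsnd and Esrrb, with 14 and 149 UMIs in P28 replicate 2.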
